A study of Mus musculus with 64 samples.

Results

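The hearts of wild type mice taken at lights off were compared with those taken at lights on, which gives the change across the light phase in a heart with an intact clock. The comparison used the 8 arrays labelled wild type at zeitgeber time (ZT, hours after lights on) 12 and 0, with 4 arrays at each time, out of 64 arrays in the series. The arrays were Illumina MouseRef-8 v2 BeadChips carrying whole-heart RNA. The series covers 8 times of day 3 h apart in wild type mice and in mice whose cardiomyocytes lack BMAL1, the product of Arntl, called knockout here. The wild type mice were male littermate controls on the C57Bl/6J background under a cycle of 12 h light and 12 h dark, with standard chow and water freely available. The knockout mice were kept in the same way, and the deletion is restricted to cardiomyocytes, so other cells of the knockout heart still carry the gene. The labels do not give the alleles of either genotype, the promoter that drives the deletion or the age of the mice. They number the samples without saying that each is a separate mouse, so p-values rest on the scatter among these arrays, some of which may be technical rather than between animals. The ZT0 hearts carried the numbers 70, 86, 87 and 128 and the ZT12 hearts 30, 106, 114 and 154, and values are given in that order throughout.

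The mammalian clock is a loop in which the pair of BMAL1 and CLOCK binds E-boxes and switches on its own repressors, the Period and Cryptochrome proteins. A second arm links the receptors REV-ERB, which repress Arntl through ROR elements, to the ROR receptors, which activate it. Output runs partly through D-boxes, where the activators DBP and TEF compete with the repressor NFIL3. Most cells of the heart hold such a clock, and the mouse is active and feeds mainly in the dark phase that begins at ZT12.

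Between 9703 and 10483 of 25697 probes were detected per array, the median raw signal was 142 to 168 intensity units, and each array spread 0.810 to 1.06 times as far from its group mean as the median array of the series. Pairs of arrays correlated at 0.983 to 0.991 within a time and at 0.979 to 0.990 between the times. Of the 9137 features tested (8449 named genes and 688 probes with no gene name), 6882 were detected on all 8 arrays and 357 on none of them. All 11 measured cardiomyocyte markers were detected, and their summed level was 2.0031e+05 to 2.1043e+05 intensity units at ZT0 and 2.0013e+05 to 2.1791e+05 at ZT12, so the ranges overlapped. Atrial markers varied within both groups: their sum ran from 7868 to 38246 units at ZT0 and from 6975 to 33931 at ZT12. Sarcolipin (Sln), an atrial regulator of the calcium pump, was at 7.74, 7.60, 11.65 and 8.08 log2 units at ZT0 and at 11.25, 7.19, 11.50 and 11.41 at ZT12. Heart 87 at ZT0 and 3 of the 4 ZT12 hearts were thus high in Sln, and heart 106 was low. The median change of the 10 atrial markers was 0.72 on the log2 scale (from -0.03 to 1.57), against -0.02 for all features. None of them passed the test, and their part in the other results was not tested.

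Promoter sequence was read for 30 of the 36 named genes that differed between the times, from RefSeq windows on build GRCm38.p6 that run from 250 bases before to 50 after each gene's start. Both strands were searched for the E-box CACGTG, the D-box TTANGTAA, the ROR element TAGGTCA and the cyclic AMP element TGACGTCA, which do not overlap each other in the hits found. The stretches below carry the elements through which the loop described above is known to run, in genes that rose or fell. They are a choice: the E-boxes of Adh1, which rose, and of Adam19 and Slc41a3, which fell, are not printed. Nor is the E-box in a second window of Tef. The windows of Dbp, Nr1d1, Nr1d2 and Usp2, which also rose, held none of these elements. Capitals mark the element, each stretch is written 5′ to 3′ along the gene's own strand, and each upstream stretch stops at the base before the gene's start.
Ciart, chr3:95882229-95882378, minus strand, 3 E-boxes: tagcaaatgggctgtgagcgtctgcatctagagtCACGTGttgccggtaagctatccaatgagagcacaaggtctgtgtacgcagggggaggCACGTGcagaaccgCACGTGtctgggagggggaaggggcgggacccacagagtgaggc
Coq10b, chr1:55052570-55052769, plus strand, a D-box and an E-box: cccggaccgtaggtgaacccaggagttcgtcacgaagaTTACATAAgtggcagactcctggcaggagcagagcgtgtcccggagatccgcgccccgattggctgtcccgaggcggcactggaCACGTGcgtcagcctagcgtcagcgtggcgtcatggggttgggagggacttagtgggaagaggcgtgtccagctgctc
Per1, chr11:69098749-69098948, plus strand, an E-box: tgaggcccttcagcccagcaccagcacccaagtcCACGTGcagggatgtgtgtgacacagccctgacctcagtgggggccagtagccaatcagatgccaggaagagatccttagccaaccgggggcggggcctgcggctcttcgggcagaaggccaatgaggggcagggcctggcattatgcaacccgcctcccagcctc
Tef, chr15:81802523-81802672, plus strand, an E-box: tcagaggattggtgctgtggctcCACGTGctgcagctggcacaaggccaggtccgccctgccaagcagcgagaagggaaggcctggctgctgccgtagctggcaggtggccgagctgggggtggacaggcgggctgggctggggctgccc
Per3, chr4:151044666-151044915, minus strand, 2 D-boxes: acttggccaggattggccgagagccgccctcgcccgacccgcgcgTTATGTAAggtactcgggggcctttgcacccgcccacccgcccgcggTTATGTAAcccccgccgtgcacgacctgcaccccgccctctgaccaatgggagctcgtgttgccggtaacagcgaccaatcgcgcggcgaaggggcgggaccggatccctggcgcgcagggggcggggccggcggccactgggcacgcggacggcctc
Nfil3, chr13:52981040-52981139, minus strand, a ROR element read on the other strand: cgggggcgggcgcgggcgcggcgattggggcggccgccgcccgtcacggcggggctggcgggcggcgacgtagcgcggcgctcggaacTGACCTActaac
Leo1, chr9:75441424-75441523, plus strand, a ROR element: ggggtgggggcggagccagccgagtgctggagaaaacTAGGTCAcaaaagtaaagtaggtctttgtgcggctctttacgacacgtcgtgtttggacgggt
Arntl, chr7:113207531-113207557, plus strand, a ROR element just inside the transcript with 10 bases on either side: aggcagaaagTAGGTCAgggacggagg

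An E-box was present for 5 of the 14 genes with a window that were higher at ZT12 (35.7%: Ciart, Coq10b, Per1, Tef and Adh1). It was present for 2 of the 16 that were lower (12.5%: Adam19 and Slc41a3) and for 12.1% of all tested genes with a window. A D-box was found for 2 of the 14 higher genes (14.3%: Per3 and Coq10b), for 0 of the lower genes and for 1.83% of the tested genes. A ROR element was found for 0 higher genes, for 3 of the 16 lower genes (18.8%: Nfil3, Leo1 and Arntl) and for 2.34% of the tested genes. The cyclic AMP element was found for none of these 30 genes and for 3.55% of the tested genes. Over all 32851 windows in the table, 7.15% held an E-box, 2.32% a D-box, 2.61% a ROR element and 1.79% a cyclic AMP element. A gene with several windows was counted if any of them held the element, and Per1, Arntl and Adam19 also had windows without it. These are matches of letters and carry no test.

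Few features passed the test between the ends of the light phase, and among them were the clock genes Dbp, Ciart, Per2 and Per1, which rose, and Arntl, which fell. A feature that did not pass is not thereby shown to be unchanged. Of 9137 features, 43 differed between ZT12 and ZT0 (0.471%), of which 18 were higher at ZT12 (0.197%) and 25 lower (0.274%), by limma with Benjamini-Hochberg adjusted p under 0.05. For 4 of the 43 no array of one time had a detected signal (Ciart, Per3, Rasl11a and Klk1b26), and their changes were taken as lower bounds. On that basis 17 of the 18 higher features rose by more than 1.5-fold and 8 by more than 2-fold. Among the 25 lower features 17 fell by more than 1.5-fold and 8 by more than 2-fold, and 7 of the 25 have no gene name. The 4 arrays of one time lay apart from the 4 of the other for all 43, as they did for 2.32% of all features on the higher side and 3.28% on the lower side. The unadjusted p was under 0.05 for 553 features (6.05%), and the median change over all features was -0.016 on the log2 scale. In whole hearts, fewer cells of a type and less RNA per cell cannot be told apart. When each array was left out in turn, between 30 and 40 features passed, and 22 of the 43 passed every time. Without heart 70 or heart 114 the number of lower features fell from 25 to 16 or 15. With the 8 arrays fitted alone, 18 of the 43 missed the threshold, among them Nr1d1 (adjusted p = 0.18), Leo1 (0.17), Timp3, Ky, Ptgis, Mmp14, Rhoj, Zfp36l1, Pdzrn3, Trp53i11, Cyria, Rasl11a, Klk1b26 and 1700029J07Rik. With no background correction 17 of the 43 changes were smaller by more than 1.5 times, among them those of Arntl, Ciart, Per3, Nr1d1, Adh1, Cyb561, Cdkn1a, Leo1, Foxs1, Mmp14 and Trp53i11. For 15 of the 43 genes other probes were tested, and all 22 of these had the same sign, though most missed the threshold. Such a probe missed it for Adh1, Cdkn1a, Coq10b, Nr1d1, Pdzrn3, Slc41a3, Tef, Timp3, Unc119b and Zfp36l1. Such a probe passed for Cdkn1a, Ciart, Nr1d2, Per1, Per2, Slc41a3, Unc119b and Usp2. The other probe of Tef gave 0.50 ± 0.16 (adjusted p = 0.25). The smallest change was -0.18 ± 0.23, for a probe of Unc119b (adjusted p = 0.99).

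**Figure D1:**
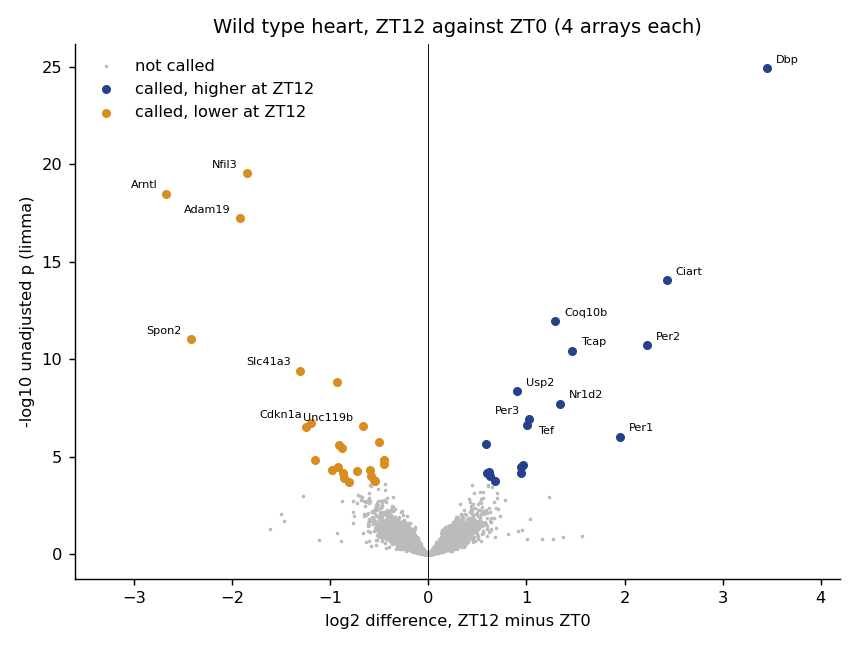
Each point is 1 of 9137 features, placed by its log2 difference (ZT12 minus ZT0, horizontal axis) and by the -log10 of its unadjusted limma p (vertical axis). The 18 features called higher and the 25 called lower are coloured and the rest are grey; Dbp on the right and Arntl on the left stand farthest out.

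Ciart, Per1, Per2 and Per3, repressors in the loop, rose. Ciart, which encodes the repressor CHRONO, was at 4.97, 4.85, 5.22 and 5.10 log2 intensity units at ZT0 and at 8.03, 7.07, 6.82 and 7.94 at ZT12. It was not detected in any ZT0 heart and was detected in every ZT12 heart, so its rise was at least 3.64-fold (adjusted p = 1.6e-11). The fitted change, 2.43 on the log2 scale, was 0.97 with no background correction. Per2, whose protein represses BMAL1 and CLOCK, had values of 7.51, 7.17, 7.06 and 7.32 at ZT0 and 9.62, 9.25, 9.49 and 9.62 at ZT12. The gap between its groups was several times wider than either group, and the change was 2.23 ± 0.26 (log2 ± SE, 4.69-fold, adjusted p = 2.1e-08). Per1, a Period gene that also responds to light signals and glucocorticoids, was at 8.14, 7.85, 7.0 and 7.41 at ZT0 and at 10.09, 9.02, 9.20 and 9.88 at ZT12. Its arrays scattered more (SD 0.50 and 0.52, n = 4 each) but did not overlap, and it rose by 1.95 ± 0.35 (3.87-fold, adjusted p = 4.4e-04). Per3, the third Period gene, was detected in 0 of 4 hearts at ZT0 and in 4 of 4 at ZT12, so its rise was at least 1.19-fold (adjusted p = 1.4e-04). A second probe gave 2.33 for Ciart, 2.04 for Per2 and 1.58 for Per1 on the log2 scale, and each of these passed as well.

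In the second arm Arntl fell, and the REV-ERB genes Nr1d1 and Nr1d2 rose. Arntl was at 7.87, 8.31, 7.70 and 8.18 at ZT0 and at 5.23, 5.73, 4.98 and 5.44 at ZT12. Every ZT12 heart was thus below every ZT0 heart, and only 1 of the 4 ZT12 hearts had a detected signal. The fitted fall was -2.67 ± 0.19 (log2 ± SE, adjusted p = 9.8e-16), a size that rests on ZT12 signals mostly below detection. It was -1.97 with a normexp offset of 50 and -1.22 with no background correction, smaller there than the falls of Spon2 (-1.73), Nfil3 (-1.45) and Adam19 (-1.43). Nr1d2, which encodes the repressor REV-ERB beta, was at 8.87, 8.98, 8.60 and 8.29 at ZT0 and at 9.93, 9.95, 9.99 and 10.22 at ZT12, a rise of 1.34 ± 0.20 (2.53-fold, adjusted p = 1.3e-05). Nr1d1, which encodes REV-ERB alpha, rose less, by 0.94 ± 0.21 (adjusted p = 0.011), from 7.67, 6.92, 7.50 and 6.99 to 8.73, 8.24, 7.88 and 7.97. Its highest ZT0 heart and lowest ZT12 heart lay close together, and the adjusted p reached 0.14 when heart 30, 86 or 128 was left out, 0.18 with the 8 arrays fitted alone and 0.054 with scaling by array medians. Its group mean was already 8.82 at ZT6 and 8.94 at ZT9, above the ZT12 mean of 8.21. The ROR receptor gene Rora was at 7.75 ± 0.16 and 7.81 ± 0.21 (mean ± SD, n = 4 each) and did not pass, and Rorb was detected in none of the 8 hearts.

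Clock, the partner of Arntl, was at 9.79, 9.75, 9.48 and 9.78 at ZT0 and at 9.12, 9.20, 8.96 and 9.20 at ZT12. The groups did not overlap, but the change of -0.58 ± 0.15 missed the threshold (adjusted p = 0.058), and it passed in 6 of 10 other settings of the processing. With 1 array left out it passed in only 1 of 8 fits, and the adjusted p reached 0.28. Bhlhe40, an E-box repressor also called DEC1, differed by 0.70 ± 0.21 (adjusted p = 0.18), and heart 114 was its lowest ZT12 value at 9.73. Cry2, the Cryptochrome gene that was measured, differed by 0.59 ± 0.26 (adjusted p = 0.69), with a 95% interval from 0.07 to 1.10. The kinases of the Period proteins, Csnk1d and Csnk1e, gave -0.01 ± 0.14 and -0.02 ± 0.17. Timeless and Btrc, a homologue of a fly clock gene and a subunit of the ligase that marks Period proteins for degradation, gave -0.07 ± 0.21 and -0.06 ± 0.15, and neither passed. Over the core clock list, 6 of 16 measured genes rose and 1 fell, with a median change of 0.33 against -0.02 for all features. Bhlhe41, Cry1, Fbxl21 and Npas2 are on the array but were not detected on enough arrays to be tested.

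The factors that bind D-boxes changed as well. Dbp, the activator that gives its name to the group, was at 9.33, 9.12, 8.85 and 9.12 at ZT0 and at 12.90, 12.45, 12.33 and 12.54 at ZT12. This was the largest fitted change of the 9137 features, 3.45 ± 0.18 on the log2 scale or 10.9-fold (adjusted p = 1.1e-21). Tef, a related activator, rose by 1.03 ± 0.17 (adjusted p = 7.8e-05), from 9.17, 9.15, 9.16 and 8.99 to 10.38, 9.84, 10.20 and 10.18. Nfil3, the repressor of the same sites, moved the other way, from 9.44, 9.98, 9.94 and 9.99 to 7.90, 8.10, 8.09 and 7.85. Its fall of -1.85 ± 0.13 (adjusted p = 1.3e-16) left a clear gap between the groups, although heart 70 was lower than the other ZT0 hearts. The third activator of the family, Hlf, is on the array but was not detected on enough arrays to be tested.

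**Figure D2:**
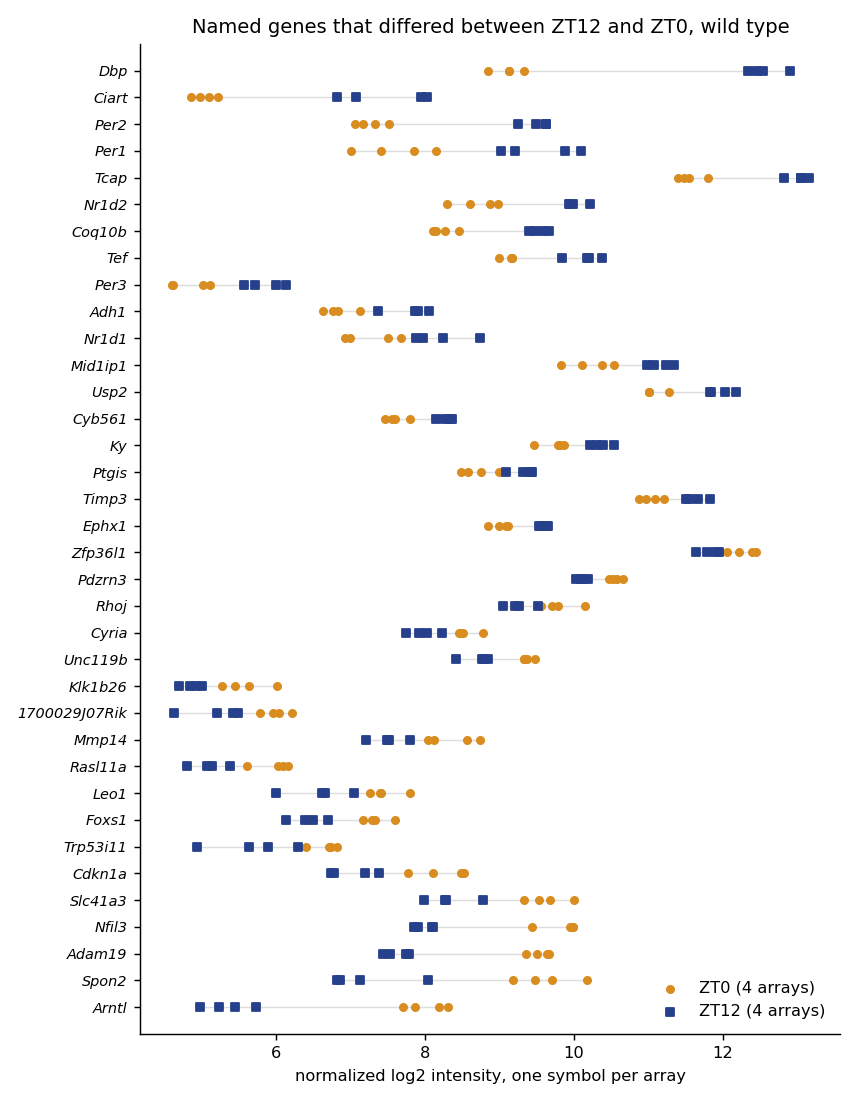
Each row is a named gene that differed between the times, and the symbols give the normalized log2 intensity of each array (circles for the 4 ZT0 hearts, squares for the 4 ZT12 hearts). Positions compare arrays within a row only, since probes differ in brightness. The circles and squares of a row do not overlap.

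Tcap, Ky, Coq10b and Usp2 were also higher at ZT12. Tcap encodes telethonin, which caps titin at the edge of the sarcomere, and it was at 11.39, 11.80, 11.47 and 11.55 at ZT0 and at 13.05, 13.05, 12.82 and 13.15 at ZT12. The 1.46 ± 0.18 rise (2.76-fold, adjusted p = 3.7e-08) was the only call among 24 measured sarcomere genes, whose median change was 0.01. Ky, which encodes a muscle peptidase, rose by 0.63 ± 0.15 (adjusted p = 0.022). Coq10b, which encodes a coenzyme Q binding protein of mitochondria, went from 8.27, 8.14, 8.10 and 8.45 to 9.40, 9.58, 9.48 and 9.66. Its change was 1.29 ± 0.14 (adjusted p = 1.7e-09), and its other probe gave 1.16 ± 0.30 and missed the threshold. Usp2, which encodes a deubiquitinase with clock proteins among its targets, went from 11.01, 11.00, 11.28 and 11.01 to 12.17, 11.83, 11.84 and 12.03. It rose by 0.90 ± 0.13 (1.86-fold, adjusted p = 3.2e-06), and the groups did not overlap.

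Several enzymes were also higher at ZT12. Adh1, an alcohol and retinol dehydrogenase, rose by 0.96 ± 0.21 (adjusted p = 0.0084). Mid1ip1, which promotes the assembly of acetyl-CoA carboxylase and so fatty acid synthesis, rose by 0.94 ± 0.22 (adjusted p = 0.017) and was the only call among 36 genes of triglyceride and lipid synthesis. Ephx1, a microsomal epoxide hydrolase, rose by 0.59 ± 0.11 (adjusted p = 9.2e-04). Ptgis, the synthase of prostacyclin, rose by 0.62 ± 0.14 (adjusted p = 0.016), and Cyb561, a membrane cytochrome that passes electrons from ascorbate, by 0.68 ± 0.17 (adjusted p = 0.036). Ephx1 and Ptgis were chosen after their values were seen, as 2 of the genes past the threshold that the naming rule leaves out. Scaled by array medians in place of quantiles, the calls of all 5 and of Ky were lost, and the largest of their adjusted p was 0.85, for Ptgis. Without 1 array at a time the highest adjusted p was 0.077 for Adh1 (heart 87 or 154 left out), 0.18 for Mid1ip1 (70, 87, 114 or 154), 0.12 for Ptgis (30, 86, 114 or 128) and 0.20 for Ky (30, 70, 106 or 154). That of Cyb561 passed only without heart 128 and otherwise reached 0.17. Adh1 and Cyb561 also missed the threshold when only the 32 arrays with numbers up to 154 were fitted.

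Spon2 and Adam19 also fell. Spon2, which encodes a secreted matrix protein, was at 10.18, 9.47, 9.70 and 9.18 at ZT0 and at 7.13, 8.04, 6.82 and 6.86 at ZT12. It fell by -2.42 ± 0.28 (log2 ± SE, adjusted p = 1.2e-08), with heart 106 the highest at ZT12 but still below every ZT0 heart. Adam19, a membrane metalloprotease needed for heart development in the mouse, was at 9.35, 9.64, 9.66 and 9.50 at ZT0 and at 7.74, 7.43, 7.78 and 7.53 at ZT12. The change of -1.92 ± 0.15 (adjusted p = 1.4e-14) was far larger than the spread within either group (SD 0.14 and 0.16, n = 4 each). Mmp14, a membrane-bound matrix metalloproteinase, fell by -0.86 ± 0.21 (adjusted p = 0.028), while Timp3, an inhibitor of such enzymes that stays bound to the matrix, rose by 0.60 ± 0.14 (adjusted p = 0.017). They were the only calls among 48 measured matrix genes, whose median change was 0.00, and neither held in every setting: the adjusted p reached 0.24 for Mmp14 and 0.14 for Timp3 with 1 array left out, among them hearts 70, 114 and 154 for both. Scaling by array medians gave 0.85 for Timp3 and 0.070 for Mmp14. Rhoj, a small GTPase of endothelial cells, fell by -0.54 ± 0.13 (adjusted p = 0.036, up to 0.38 with 1 of 6 arrays left out).

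Cdkn1a, which encodes the cell cycle inhibitor p21, was at 8.48, 7.77, 8.11 and 8.52 at ZT0 and at 7.19, 6.74, 7.38 and 6.77 at ZT12. It fell by -1.20 ± 0.20 (2.30-fold, adjusted p = 1.2e-04) and was the only call among 20 genes of the cell cycle. Slc41a3, of a family of magnesium transporters, was at 10, 9.53, 9.67 and 9.33 at ZT0 and at 8.78, 8.28, 8.26 and 7.98 at ZT12, with no overlap. Its change was -1.31 ± 0.17 (adjusted p = 3.4e-07). Leo1, a subunit of the PAF1 complex that travels with RNA polymerase, fell by -0.88 ± 0.17 (adjusted p = 0.0014), and its adjusted p was 0.057 without heart 154 and 0.17 with the 8 arrays fitted alone. Unc119b, a carrier of lipid-modified proteins to the cilium, fell by -0.67 ± 0.11 (adjusted p = 1.4e-04), and the forkhead factor gene Foxs1 by -0.91 ± 0.17 (adjusted p = 9.9e-04). Zfp36l1, which binds AU-rich messages and promotes their decay, fell by -0.45 ± 0.10 (adjusted p = 0.0053), and Pdzrn3, a ubiquitin ligase with PDZ domains, by the same amount (adjusted p = 0.0084). Pdzrn3, Rasl11a and Klk1b26 were also chosen after their values were seen.

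The named falls also included Trp53i11, Cyria, Rasl11a, Klk1b26 and 1700029J07Rik. Trp53i11, a gene induced by p53, fell by -0.98 ± 0.22 (adjusted p = 0.013), and Cyria, an interactor of the GTPase RAC1, by -0.58 ± 0.14 (adjusted p = 0.022). Rasl11a, of the RAS-like family, was detected in 3 of 4 hearts at ZT0 and 0 of 4 at ZT12, a fall of at least 1.36-fold (adjusted p = 0.017). The kallikrein gene Klk1b26 was detected in 2 of 4 and 0 of 4, a fall of at least 1.04-fold (adjusted p = 0.015), and close relatives in its gene cluster may share its probe. 1700029J07Rik was detected in 4 of 4 and 1 of 4 and fell by -0.81 ± 0.20 (adjusted p = 0.043). With 1 array left out, the adjusted p reached 0.27 for Trp53i11, 0.21 for Cyria, 0.14 for Rasl11a, 0.20 for Klk1b26 and 0.43 for 1700029J07Rik, and hearts 70 and 114 were among those that ended each of these calls. That of Zfp36l1 reached 0.066 (missed without heart 30 or 128) and that of Pdzrn3 0.055 (without 114 or 128). With scaling by array medians the calls of Zfp36l1, Pdzrn3, Cyria and Rhoj were lost as well, with adjusted p up to 0.20. Of the unnamed probes, ILMN_1241293 (-1.25, adjusted p = 1.5e-04) and ILMN_1223511 (-1.16, adjusted p = 0.0053) fell most. ILMN_1241293 passed in every setting. ILMN_1223511 missed the threshold without heart 70 or 154 and with the 8 arrays fitted alone. ILMN_2760272 fell by -0.93 ± 0.13 and ILMN_2588050, a bright probe at 13.90 and 13.41 log2 units, by -0.50 ± 0.09. With the 8 arrays fitted alone the call of ILMN_2588050 was lost (adjusted p = 0.16).

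Over the clock output list, 4 of 17 measured genes rose (Dbp, Tef, Coq10b and Usp2) and 4 fell (Nfil3, Adam19, Slc41a3 and Leo1), with a median change of 0.09. That list and the core clock list together held 15 of the 43 calls among 33 measured genes, and both were drawn up with the results of this series known. The other output genes did not pass. Gpcpd1, a phosphodiesterase of glycerophosphocholine, gave 0.57 ± 0.21 (adjusted p = 0.49), and the glucocorticoid-responsive factor gene Klf9 gave 0.39 ± 0.24. Nampt, which encodes the limiting enzyme of the NAD salvage route, gave -0.23 ± 0.23, with heart-to-heart SDs of 0.12 at ZT0 and 0.37 at ZT12 (n = 4 each). Pik3r1, a regulatory subunit of PI3 kinase, gave 0.09 ± 0.15, Tsc22d3, a glucocorticoid-induced gene, 0.23 ± 0.13, and the tensin gene Tns2 -0.05 ± 0.21. Klf10, Klf15 and Fmo2 were each detected in 4 or fewer of the 8 hearts, and none of them passed.

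Outside the clock lists 5 of 793 list genes were called (0.631%: Tcap, Cdkn1a, Mid1ip1, Timp3 and Mmp14), a share near the 0.471% of all features and so no result about these pathways. Of the 29 pathway lists, 21 held no call. None of 34 genes of fatty acid uptake and oxidation passed, with changes between -0.62 for the fatty acid carrier Cd36 and 0.24. None of 31 genes of glucose uptake and glycolysis passed, nor any of 68 genes of oxidative phosphorylation, whose median change was -0.03 and whose extremes were -0.39 and 0.28. Among 17 glycogen genes the nearest to the threshold was Ppp1r3c, which targets a phosphatase to glycogen. It was at 12.60, 12.54, 12.68 and 12.62 at ZT0 and at 12.03, 12.02, 11.96 and 12.08 at ZT12. Its groups were tight and did not overlap. The SE rests on the variance estimate shared over the 64 arrays, and the change of -0.59 ± 0.15 gave an adjusted p of 0.056. It passed in 5 of 10 other settings, the fit of the 8 arrays alone among them. With 1 array left out it passed in 0 of 8 fits. Over all these alternatives the adjusted p ran from 0.025 to 0.29. Nppb, which encodes the natriuretic peptide BNP and belongs to the hypertrophy list, differed by -0.88 ± 0.27 (adjusted p = 0.21). It passed in 1 of 8 fits with 1 array left out (0.034 without heart 106, up to 0.74 otherwise) and in 0 of 10 other settings. The contractile genes Myh6 and Myl2 gave -0.05 ± 0.07 and 0.09 ± 0.09.

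The lists of stress, immediate early, inflammation and interferon genes held no call. The immediate early gene Egr1 was at 12.67, 11.60, 10.79 and 10 at ZT0 and at 9.76, 9.99, 10.16 and 10.05 at ZT12. Its ZT0 hearts spread over a range that reached the ZT12 values, and the change of -1.28 ± 0.37 did not pass (adjusted p = 0.16), nor did any of the 15 measured genes of that list. Hspa1a, an inducible heat shock protein gene, was at 9.93 in heart 70 and between 5.46 and 6.00 in the other ZT0 hearts. None of 36 chaperone genes passed, and none of 29 cold-inducible and splicing genes, where Cirbp gave 0.45 ± 0.21 (adjusted p = 0.74). Nfkbia, the inhibitor of NF-kappa B, gave 0.65 ± 0.17 (adjusted p = 0.061), and Chac1, a stress gene that breaks down glutathione, 1.23 ± 0.36 (adjusted p = 0.16). With 1 array left out the adjusted p fell to 0.011 for Egr1 (without heart 128), 0.019 for Nfkbia (without 106) and 0.031 for Chac1 (without 114). Each of these genes passed in only 1 of 8 such fits and in 0 of 10 other settings. With a different array left out the adjusted p reached 0.96 for Egr1, 0.61 for Nfkbia and 0.75 for Chac1. The interferon and antigen presentation list had a median of 0.23 over 34 genes, none of which passed.

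**Figure D3:**
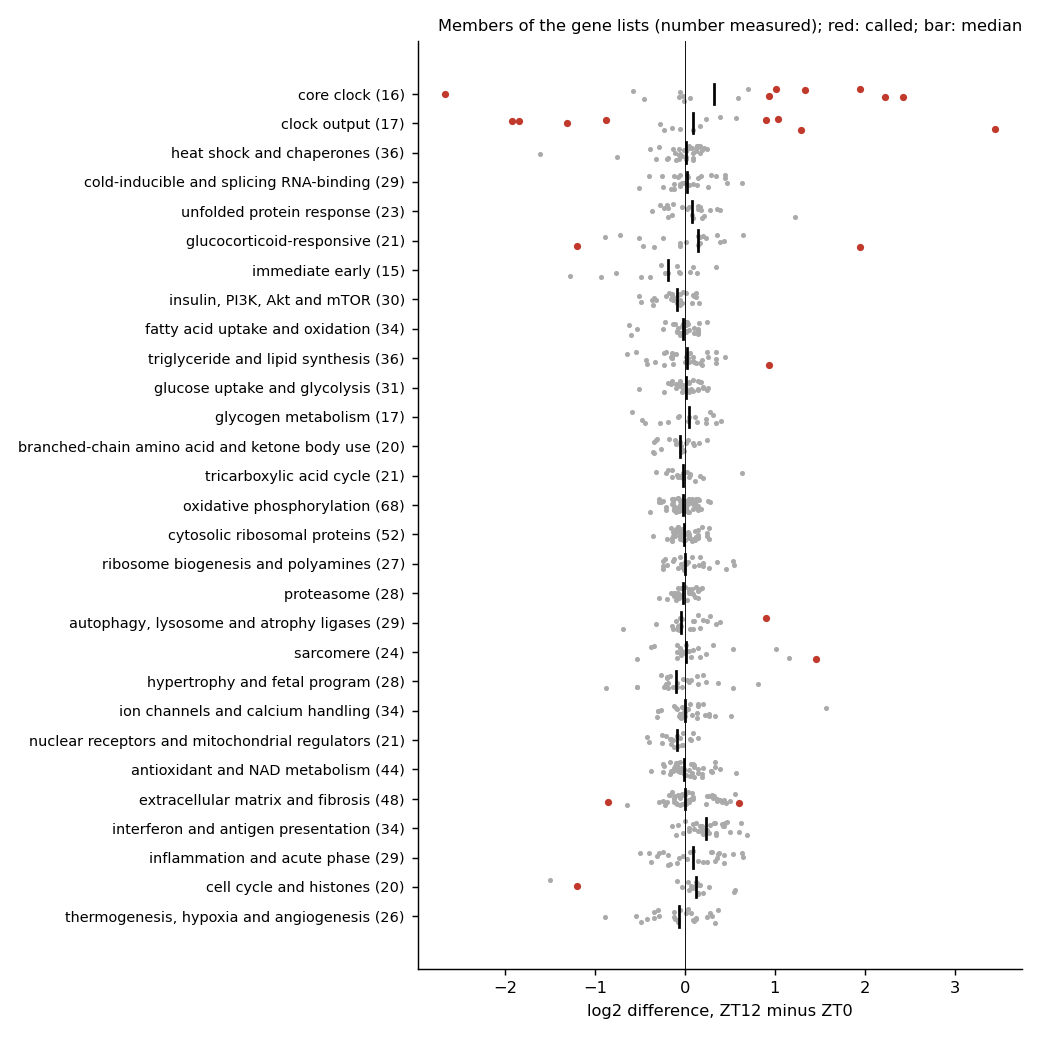
Each row is a pathway list with its number of measured genes, each point is a member's log2 difference (ZT12 minus ZT0) and the bar is the list's median. Called members are red: 6 higher and 1 lower in the core clock row, 4 and 4 in the clock output row, and at most 1 higher and 1 lower in any other.

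The other cell types of the heart showed no call either: 0 of 15 endothelial, 0 of 11 fibroblast, 0 of 12 smooth muscle and pericyte and 0 of 18 myeloid markers passed. The summed endothelial level was 19479 to 23098 units at ZT0 and 22516 to 23479 at ZT12, and that of red blood cell genes 19676 to 30820 and 26428 to 36628, with overlapping ranges in both cases. The myeloid sum was 11013 to 12253 and 11795 to 13568 units. None of 7 thymus markers and 1 of 16 lymphocyte markers was detected on enough arrays to be tested.

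The same axis of the day was measured in the 24 wild type arrays of the other 6 times. Their levels did not enter the changes above, though their scatter entered the variance estimate behind the SEs and p-values. A 24 h cosine was fitted to them, and its height at ZT12 minus that at ZT0 was set beside the measured change. The cosine crosses its mean at ZT6 and ZT18, so this difference rests on the levels at ZT3, ZT9, ZT15 and ZT21. Those samples all have numbers above 154. For this difference the arrays of ZT6 and ZT18 added only to the estimate of scatter. Of the 43 genes, 42 had the same sign in that fit and 31 passed there (16 of 18 higher and 15 of 25 lower). Over all features 1.19% passed there (0.668% higher, 0.525% lower), and 56.6% had the same sign in both. Dbp gave 3.93 ± 0.19 there, Arntl -3.52 ± 0.18, Per2 3.18 ± 0.34 and Tcap 1.63 ± 0.15 (log2 ± SE, all past the threshold). Per1 gave 1.61 ± 0.42 and missed it (adjusted p = 0.065). The gene with the other sign was Klk1b26, at 0.08 ± 0.24, and 1700029J07Rik gave -0.03 ± 0.20. Over all 9137 features the changes correlated at r = 0.343, which is a description across genes, and genes are not independent replicates.

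The extremes of the day did not always fall at the 2 times compared. Of the 18 higher genes, 8 had their highest wild type mean at ZT12, 8 at ZT9 (among them Dbp at 12.75, Ciart at 8.56 and Tcap at 13.33) and 2 at ZT15, Adh1 and Cyb561. The Ciart mean had dropped to 7.46 by ZT12. Of the 25 lower genes, 20 had their highest mean at ZT0, 4 at ZT3 and 1 at ZT21. Arntl was at 8.02 at ZT0, 8.08 at ZT3, 7.12 at ZT6 and 5.49 at ZT9, and its lowest mean was 5.17 at ZT15. Nfil3 fell earlier and had reached 8.02 by ZT6, and its mean was back at 9.50 by ZT18. ZT 3, 9, 15 and 21 come from samples with higher numbers than 154, a separate set, so small steps between neighbouring times also carry any difference between the sets.

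**Figure D4:**
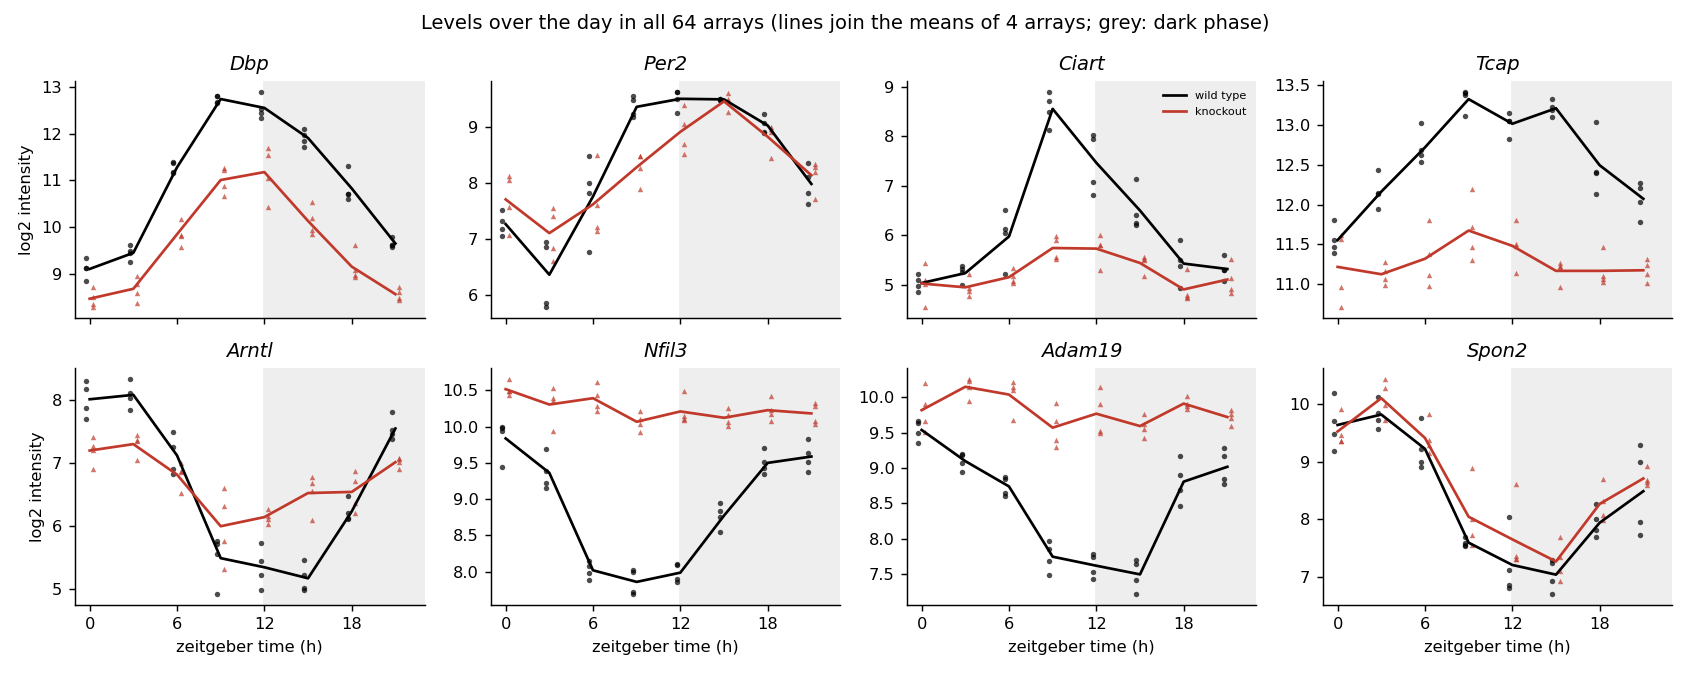
Panels give the normalized log2 intensity of 8 genes against zeitgeber time in hours, with 1 symbol per array, 64 arrays in each panel, and lines through the means of 4 arrays for wild type and knockout. The grey band is the dark phase. In wild type, Dbp, Ciart and Tcap are at their highest mean at ZT9 and Arntl at its lowest at ZT15.

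The same comparison was made in the knockout heart, whose cardiomyocytes lack BMAL1. Its 8 arrays spread 1.12 to 1.34 times as far from their group mean as the median array of the series. For the wild type arrays compared this was 0.810 to 1.06. The fit shares its variance estimate between the genotypes, so the knockout SEs do not carry this wider spread in full. Arntl, the targeted gene, had a mean of 7.20 at ZT0 and 6.14 at ZT12 in knockout, against 8.02 and 5.35 in wild type, and whether its probe lies in the deleted part is not given. In knockout 21 features differed between the times (0.23%), 13 of them higher at ZT12 (0.142%) and 8 lower (0.0876%), and 15 of the 43 wild type calls passed there in the same direction. The difference of the change itself passed for 10 features (0.109%), which all belong to the 43. The knockout change was the smaller in each of the 10, as it was in 37 of the 43 (86%), which were selected by their wild type change. Its sign was opposite in 2 of the 10, Slc41a3 and ILMN_2588050. Adam19 changed by -0.05 ± 0.15 in knockout, a difference of 1.87 ± 0.21 from wild type (adjusted p = 4.2e-08). Nfil3 changed by -0.31 ± 0.13 (difference 1.54 ± 0.18, adjusted p = 5.2e-08), Slc41a3 by 0.10 ± 0.17 (difference 1.40 ± 0.24) and Arntl by -1.06 ± 0.19 (difference 1.61 ± 0.27, and 0.74 with no background correction). In knockout the ZT0 and ZT12 means of Nfil3 (10.52 and 10.21) and of Adam19 (9.82 and 9.77) were above the wild type ZT0 means of 9.84 and 9.54.

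Among genes that rose in wild type, the change was smaller in knockout for Tcap (0.26 ± 0.18, difference -1.20 ± 0.25) and Coq10b (0.14 ± 0.14, difference -1.15 ± 0.20). Ciart was not detected in any ZT0 heart of either genotype and was detected at ZT12 in 4 of 4 wild type and 3 of 4 knockout hearts, with means of 7.46 and 5.73. Its fitted difference of -1.72 (adjusted p = 0.0030) is therefore no measured size, and it was -0.76 with no background correction. The change of Usp2 was also smaller in knockout (0.10 ± 0.13, difference -0.80 ± 0.18, adjusted p = 0.048). The knockout means at ZT12 were 7.90 for Coq10b and 11.48 for Tcap, near the wild type ZT0 means of 8.24 and 11.55. With each of the 16 wild type and knockout arrays left out in turn, the differences of Adam19, Nfil3, Slc41a3, Arntl, Ciart, Coq10b and ILMN_2760272 passed every time. Scaled by array medians, the differences of Adam19, Nfil3, Slc41a3, Arntl and Ciart passed, while Coq10b (adjusted p = 0.16), ILMN_2760272 (0.16), Tcap (0.18), Usp2 and ILMN_2588050 missed the threshold. Tcap passed in 11 of 16 (adjusted p up to 0.10, missed without wild type 70 or 154 or knockout 6, 8 or 108), ILMN_2588050 in 5 and Usp2 in 4, and these last were also lost with no filter on detection. Other clock genes changed in the knockout heart as well. Dbp rose by 2.71 ± 0.18, Nr1d2 by 1.91 ± 0.20, Per2 by 1.20 ± 0.26, Nr1d1 by 1.08 ± 0.21, Tef by 0.88 ± 0.17 and Per3 by 0.85 ± 0.17, all past the threshold in knockout. Per1 differed by 1.46 ± 0.35 there (adjusted p = 0.051). The Per3 value is a fitted size for a probe that was not detected in any wild type ZT0 heart, so it cannot be set beside a measured wild type change. Spon2 fell by -1.86 ± 0.28 in knockout, and its difference of 0.56 ± 0.39 did not pass. Cdkn1a gave -0.01 ± 0.20 in knockout and a difference of 1.19 ± 0.28 that missed the threshold (adjusted p = 0.087). For the other 33 features the difference did not pass, which does not show that the genotypes are alike.

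**Figure D5:**
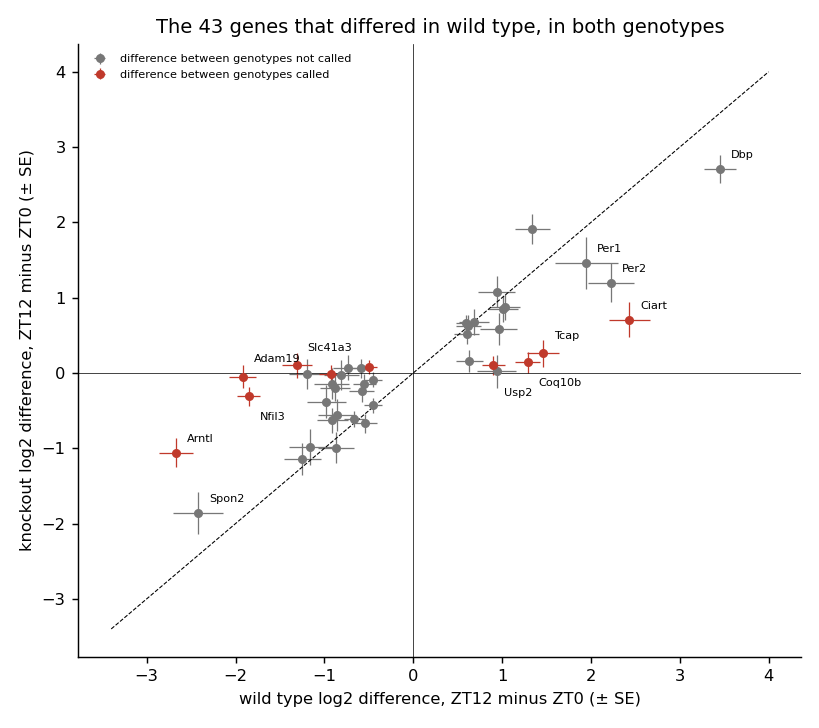
Each point is 1 of the 43 features that differed in wild type, with its log2 difference (ZT12 minus ZT0) in wild type on the horizontal axis and in knockout on the vertical axis, bars giving SEs. The dashed line marks equal change; the 10 features whose difference passed lie between that line and 0 or just past 0, among them Adam19 at -1.92 and -0.05.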

How the data were processed

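Per the file headers, the deposited scanner table holds for each probe the average intensity of its beads, with no normalization. The authors also deposited a detection p-value beside each intensity, per the file headers, and a table of processed intensities that served as an alternative (values below 0 set to 0, plus 16, log2). Their software was not stated in the labels or headers used. Background was removed with the normexp model, its parameters estimated from the detection p-values (offset 16), arrays were quantile normalized, and log2 was taken (limma 3.58.1, R 4.3.3). Probes with detection p under 0.01 on at least 4 of 64 arrays were kept (12101 of 25697), and of several probes for a gene the one with the highest mean over all arrays. Symbols came from the platform annotation (23978 probes had 1, 1719 none), and RefSeq matched 23962.

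Each of 16 groups of genotype and time had a mean in a limma fit over the 64 arrays. The fit gave the wild type contrast of ZT12 and ZT0, the knockout contrast and their difference. A 24 h cosinor with a term for the sample-number set was fitted to the 24 other wild type arrays. Two-sided p-values received Benjamini-Hochberg adjustment across all 9137 features, with a threshold of 0.05. The tests were tried on simulated data with independent noise and the same variance in all groups for a feature. That trial does not cover groups that differ in scatter. A level is a normalized log2 intensity, comparable within a probe only. A fold for a gene not detected in one group is a lower bound, set against the dimmest detected signal. The number of arrays limits the precision. No slide or scan date was given, so no batch inside the comparison could be tested.

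Genes were named by this rule: all members of both clock lists that could be tested, the 15 top rises and 15 top falls past the threshold that were detected in every array of the higher group, the members of each other list with the lowest adjusted p (at most 4), and the 10 called genes with the smallest adjusted p for the difference between genotypes. The lists, the members and this rule were chosen with earlier results of these data known, so no count over a list is independent evidence. Alternatives covered background correction, scaling, the authors' values, the filter, probes, the arrays in the fit and each array left out.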

Additional observations from a re-analysis of the deposited data

Results flagged for a closer look

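The change from ZT0 to ZT12 differed between the genotypes, by the test of the difference itself, for 10 features. As knockout change minus wild type change on the log2 scale, the difference was 1.87 for Adam19, 1.61 for Arntl, 1.54 for Nfil3, 1.40 for Slc41a3, 0.91 for ILMN_2760272 and 0.57 for ILMN_2588050, which fell in wild type. It was -1.72 for Ciart, -1.20 for Tcap, -1.15 for Coq10b and -0.80 for Usp2, which rose in wild type. Ciart was not detected in any ZT0 heart of either genotype, so its value is no measured size.

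In 12 of 150 groups of 4 arrays, 1 array stood far from the other 3. The critical value used is passed by chance in about 1 of 20 groups, and these groups are not independent, since they come from the same 8 hearts. At ZT0, heart 87 stood apart for Clock (9.48 against 9.75 to 9.79 in the others), Cyria (8.78), Usp2 (11.28) and Sln (11.65). Heart 70 stood apart for Hspa1a (9.93), Nfil3 (9.44) and an unnamed probe (7.59 against 6.99 to 7.05), and heart 128 for Tef (8.99). At ZT12, heart 106 was low for Sln (7.19 against 11.25 to 11.50), heart 114 low for Bhlhe40 (9.73), heart 30 high for Cirbp (8.68) and heart 154 low for Rcan1 (10.01).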

How the results depend on the processing

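No result that passed turned its sign in any alternative, and the 43 calls ranged from 30 to 56. Scaling by array medians gave 10 higher genes in place of 18, 5 genotype differences in place of 10 (Adam19, Nfil3, Slc41a3, Arntl and Ciart) and 42 genes in the cosine of the other wild type arrays in place of 109. It moved the median change over all features to -0.076, against -0.016. Fitting only the 8 arrays gave 15 lower genes in place of 25. Fitting only the 32 arrays with numbers up to 154 lost 6 of the 43 calls: Adh1, Cyb561, Mmp14, Pdzrn3, 1700029J07Rik and ILMN_3160568. With no filter on detection 3 were lost (1700029J07Rik, Cyb561 and Rhoj), and with the authors' processed values 3 (1700029J07Rik, Klk1b26 and Rasl11a). With 1 of the 8 arrays left out, the total ran from 30 to 40, the higher genes from 14 to 17 and the lower genes from 15 (without heart 114) to 24. The genotype differences ran from 7 to 10, also with each knockout array left out, an alternative chosen after seeing the data. Of the 43 called features, 22 passed without each array in turn, 20 in every other setting and 20 in all. The causes were not tested. Of the 32 genes named that did not pass, 6 passed somewhere: Clock, Ppp1r3c, Egr1, Nfkbia, Chac1 and Nppb. No paired analysis was possible because the 2 groups share no sample number. Low signals limit Ciart, Per3, Rasl11a and Klk1b26, which were not detected at one of the times, and Arntl, detected in 1 of 4 hearts at ZT12.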

Other observations

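Some genes passed in the cosine fitted to the other 24 wild type arrays but did not pass between ZT12 and ZT0. Of the 109 features that passed there, 78 did not pass here, and 65 of these had the same sign here. Ankrd23, a stress-responsive ankyrin repeat protein of the sarcomere, was at 10.82, 10.89, 11.03 and 10.76 at ZT0 and at 10.62, 10.72, 10.37 and 10.25 at ZT12. Its groups did not overlap, and the change of -0.38 ± 0.17 (adjusted p = 0.70) compares with -1.17 ± 0.14 in the other arrays, where its mean was highest at ZT3 (11.13) and lowest at ZT15 (10.04). Rcan1, an inhibitor of calcineurin, differed by -0.53 ± 0.18 here and by -0.82 ± 0.11 there, with its highest mean at ZT3 (10.88) and its lowest at ZT15 (10.06). Nppb, which encodes BNP, differed by -0.88 ± 0.27 here and by -1.38 ± 0.21 there, with its highest mean at ZT3 (12.57) and its lowest at ZT15 (11.28). Ier3, an immediate early gene of cell survival, differed by 0.34 ± 0.15 here and by 1.19 ± 0.16 there, with its highest mean at ZT15 (11.12) and its lowest at ZT3 (10.05). Whether these means differ from those at ZT0 and ZT12 was not tested.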
